A study of Mus musculus with 18 samples.

Results

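The genes described here are 33 genes of protein folding in the endoplasmic reticulum (ER) and of the unfolded protein response, out of 24445 gene symbols in the expression table. They were listed by function, but the list was chosen with earlier results of these data known, so the choice was not blind to the values. With 1 transcript per symbol, they fall into 15 ER chaperones and folding enzymes, 7 genes of ER-associated degradation, 4 genes for the stress sensors and Xbp1, and 7 genes of the Atf4 branch. All 33 had a transcript in the table. The filter on low values, at least 1 FPKM (read fragments scaled to transcript length and to library depth) in at least 2 libraries, kept 12599 genes and 32 of the 33. Derl3, a channel component of ER-associated degradation, lay between 0.206 and 0.530 FPKM and was not tested.

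The RNA came from primary fibroblasts of the tail tip of 2-month-old mice, collected at passage 5. The study concerns CRISPR/Cas9 editing of Lmna in a mouse model of progeria, a disorder of early ageing, in which the Pro allele of Lmna gives rise to a shortened lamin A. There were 3 genotypes with 2 replicates each, from different mice: Pro/Pro;Cas9/+, which carries the Pro allele on both copies and a Cas9 transgene, +/+;Cas9/+, which carries Cas9 without the Pro allele, and Pro/+; +/+, which carries 1 Pro allele and no Cas9 and served as the negative control. From every mouse, cells received a lentivirus with a guide RNA that matches nothing in the genome (gMock) or with a guide that targets Lmna, of which there were 2, named gLmna-1 and gLmna-2. Where 3 values of a replicate are given below, their order is gMock, then gLmna-1, then gLmna-2. This gave 9 groups of 2 libraries, 18 in all, so every group, controls included, was transduced with a virus that also carried mCherry. The cultures were over 80% mCherry-positive and were not sorted or selected, so each library also holds cells without the virus. The labels do not say what drives Cas9, and it is not stated if replicate 2 of Pro/+; +/+ came from a single animal or from pooled ones. Pro/+; +/+ differs from Pro/Pro;Cas9/+ in both the Pro allele and Cas9, and these cannot be told apart in that comparison.

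Libraries held 22424394 to 42622120 reads. Markers of fibroblasts summed to 9994 to 14260 FPKM, with 11 of 11 detected at 1 FPKM or more in some library. Markers of macrophages were also present: 13 of 13 reached 1 FPKM in some library, and their sum lay between 78.2 and 1742 FPKM. Endothelial and keratinocyte markers summed to at most 3.10 and 2.48 FPKM. Skeletal muscle markers summed to 7.28 to 66.3, pigment and Schwann cell markers to 9.25 to 45.1 and adipocyte markers to 20.7 to 63.4. Of these lists, only 2 of 6 muscle, 6 of 8 pigment and Schwann and 2 of 5 adipocyte markers reached 1 FPKM in some library. The muscle sum was nearly all Acta1 (6.42 to 65.35 FPKM) and the adipocyte sum nearly all Fabp4 (16.4 to 62.05 FPKM). Lmna itself, the targeted gene, had FPKM values of 246, 249, 247 (replicate 1 of Pro/Pro;Cas9/+) and 369.8, 217, 310.0 (replicate 2). Small insertions or deletions made by Cas9 need not change the amount of a transcript, so these levels do not check the labels. The gMock and gLmna-2 libraries of replicate 2 of Pro/Pro;Cas9/+ and of replicate 1 of +/+;Cas9/+ had the highest levels of Atf3, Ddit3 and some other stress-responsive genes, which is described with the Atf4 branch.

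Proteins that enter the secretory pathway fold in the ER with the help of the Hsp70-type chaperone BiP (Hspa5), the Hsp90-type chaperone Grp94 (Hsp90b1), the lectins calnexin and calreticulin, and disulfide isomerases. When unfolded proteins build up, the sensors Ire1 (Ern1), Perk (Eif2ak3) and Atf6 start the unfolded protein response: Ire1 splices Xbp1 mRNA, Atf6 is released as a transcription factor, and both raise chaperones and degradation factors, while Perk slows translation and favours translation of Atf4, which drives amino acid synthesis and, with Ddit3, stress-induced death. Fibroblasts secrete large amounts of collagen, which is folded in the ER.

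ER chaperones were among the most abundant of the 33 transcripts in these cells. The FPKM unit is per length, so levels of genes can be set side by side: over the 18 libraries the median was 969.9 FPKM for Calr, 796 for P4hb, 582 for Hsp90b1, 547.6 for Pdia3 and 541.6 for Hspa5. At the other end of the folding group, Dnajc3, an inhibitor of Perk and a BiP co-chaperone, had a median of 32.7, Sdf2l1 20.3 and Dnajb9 19.9. The degradation genes had medians between 12.0 for Derl2 and 42.2 for Sel1l, apart from Derl3. Of the sensors, Ern1 was at 4.74, Atf6 at 12.5 and Eif2ak3 at 13.3, and of the Atf4 branch the range went from 5.02 for Atf3 to 183 for Atf4.

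The members differed in how much they varied. Canx, the membrane-bound lectin calnexin, had the smallest spread, from 158 to 200 FPKM, a highest value 1.27 times the lowest. Hspa5 spanned 318 to 709.6 FPKM (2.23 times) and Creld2 28.4 to 55.8 (1.97 times). Atf3 had the widest spread, from 1.53 to 23.1 FPKM, 15.1 times, and Chac1, Ddit3 and Trib3 of the same branch spanned 3.48, 3.10 and 3.01 times. Among the chaperones the widest was Sdf2l1 at 2.44 times, and Ppp1r15a at 2.52 also exceeded it, whereas Atf4 and Asns, at 1.44 and 1.64 times, varied as little as most chaperones. The map of all 33 genes shows both patterns.

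**Figure D1:**
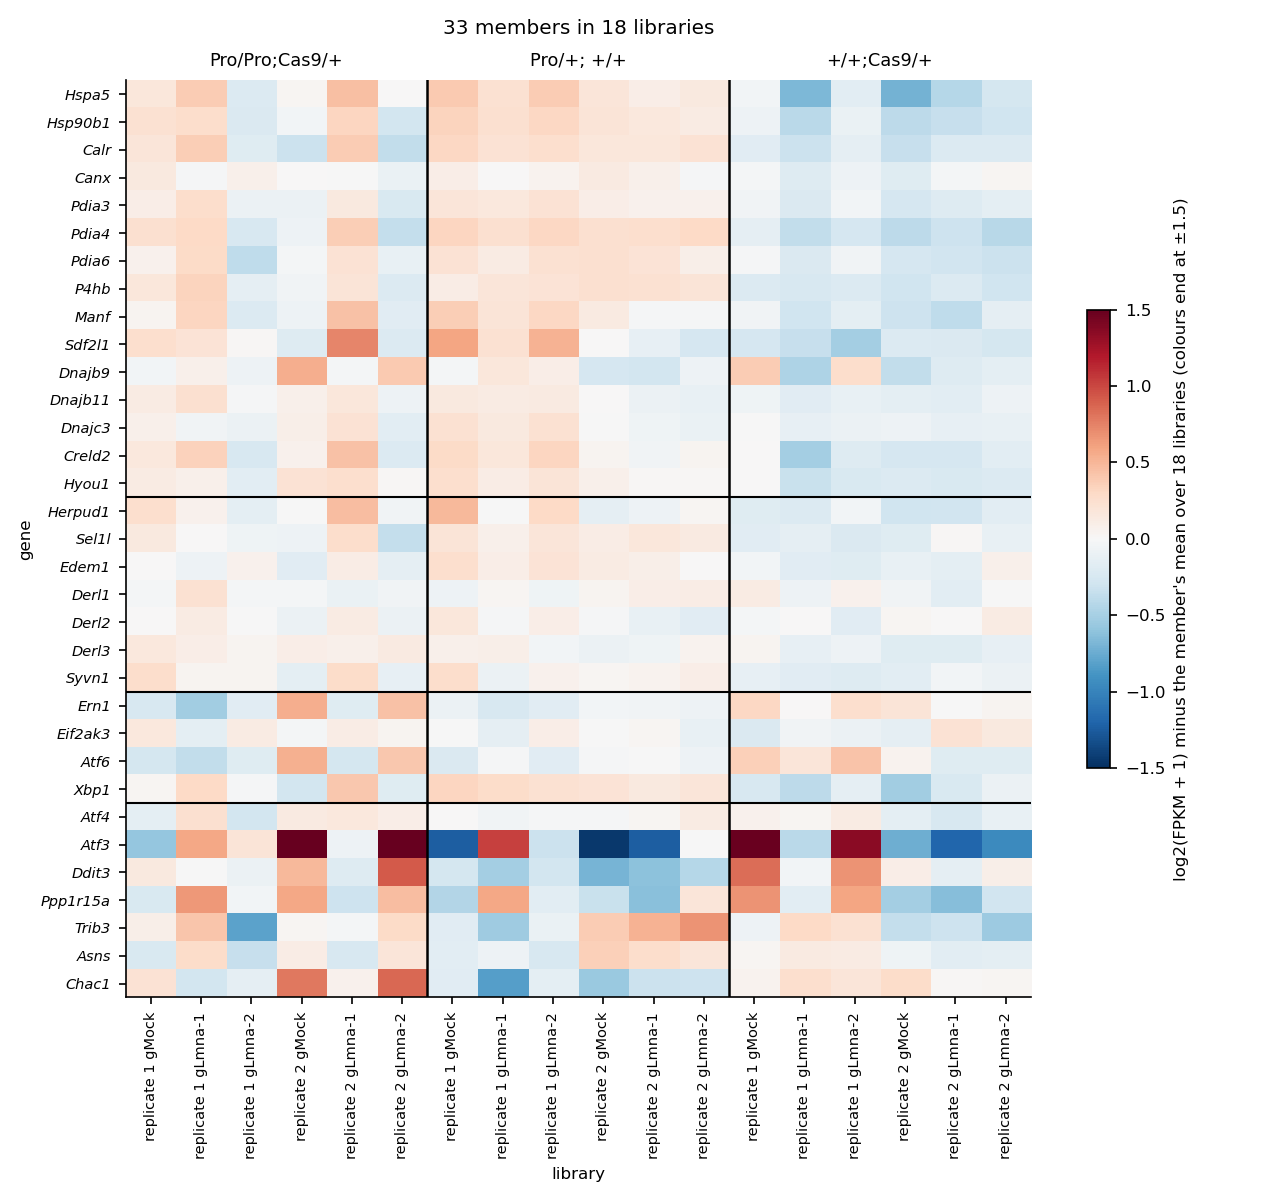
Each row is 1 of the 33 genes and each column 1 of the 18 libraries, ordered by genotype, replicate and treatment. Colour is log2(FPKM + 1) minus that gene's mean over the libraries, and lines part the groups of genes and the genotypes. In Pro/Pro;Cas9/+ most chaperones are above their mean with gLmna-1 and below it with gLmna-2, and Atf3 is far above its mean in 4 libraries, where it lies between 16.6 and 23.1 FPKM.

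The 2 guides were compared with each other within each genotype, which asks whether cells given either Lmna guide differ. In Pro/Pro;Cas9/+ cells, 9 of the 15 chaperones and folding enzymes were lower with gLmna-2 than with gLmna-1 and none was higher. They were Hsp90b1, Calr, the disulfide isomerases Pdia3, Pdia4, Pdia6 and P4hb, the secreted ER factor Manf, the BiP co-chaperone Dnajb11 and Creld2, an ER protein induced by ER stress. Over all 32 tested members 11 passed, 10 lower and 1 higher, which is 34.4% of them, against 9.95% of all tested genes (1253 of 12599). Among all genes 3.02% were lower and 6.92% higher. The median log2 change of the 15 chaperones was −0.50, with 1 positive, and that of all tested genes was 0.06. In a culture, fewer cells of a type and less RNA per cell cannot be told apart.

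Calr, the soluble calcium-binding lectin calreticulin, had in Pro/Pro;Cas9/+ FPKM values of 1083, 1235, 843 (replicate 1) and 767, 1245, 738 (replicate 2). Hsp90b1 had FPKM values of 662, 677, 487 (replicate 1) and 548, 705, 467 (replicate 2). The values of Pdia4 were 181, 188, 129 (replicate 1) and 145, 198, 119 (replicate 2). For each of these 3 genes both gLmna-2 libraries lay below both gLmna-1 libraries. For Hsp90b1 and Pdia4 they also lay below both gMock libraries, whereas for Calr the gMock value of replicate 2 was below the gLmna-2 value of replicate 1. The log2 change from gLmna-1 to gLmna-2 was −0.65 for Calr (SE 0.13, adjusted p = 0.0165), −0.53 for Hsp90b1 (SE 0.11, adjusted p = 0.0203) and −0.63 for Pdia4 (SE 0.10, adjusted p = 0.00954).

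Manf had the smallest p of the members. Its FPKM values in Pro/Pro;Cas9/+ were 70.0, 85.8, 59.0 (replicate 1) and 64.5, 93.0, 60.3 (replicate 2), a log2 change between the guides of −0.57 (SE 0.08, adjusted p = 0.00655). Creld2 had FPKM values of 45.6, 52.4, 34.4 (replicate 1) and 42.9, 55.8, 35.3 (replicate 2), a change of −0.62 (SE 0.11, adjusted p = 0.0114). In both genes gMock lay between the 2 guides in each replicate.

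The other folding enzymes that passed followed the same order of guides. Pdia6 had FPKM values of 262, 305, 192 (replicate 1) and 245, 290.5, 231 (replicate 2) in these cells. Those of P4hb were 878, 978, 710.5 (replicate 1) and 754, 894, 675 (replicate 2). In both genes the 2 gLmna-1 libraries were the highest and the 2 gLmna-2 libraries the lowest of the genotype. Pdia3, the isomerase that works with calreticulin and calnexin, had FPKM values of 582, 653.5, 511 (replicate 1) and 509.5, 602, 463 (replicate 2). Dnajb11 had FPKM values of 99.4, 108.5, 89.96 (replicate 1) and 96.0, 103, 86.9 (replicate 2), the narrowest range of the 9 chaperones that passed.

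Among these enzymes, Pdia6 changed by −0.50 (adjusted p = 0.0205), P4hb, which is also the beta subunit of collagen prolyl hydroxylase, by −0.43 (adjusted p = 0.0180), Pdia3 by −0.37 (adjusted p = 0.0268) and Dnajb11 by −0.26 (adjusted p = 0.0346). Hspa5, the Hsp70-type chaperone BiP, had FPKM values of 583, 675, 448 (replicate 1) and 530.4, 709.6, 519 (replicate 2). Its log2 change was −0.52, as large as that of Hsp90b1, but with an SE of 0.18 it did not pass (adjusted p = 0.101). Sdf2l1, a BiP-associated protein, gave −0.56 (SE 0.20, adjusted p = 0.109), Hyou1, a nucleotide exchange factor for BiP, −0.23 (adjusted p = 0.107) and Dnajc3 −0.20 (adjusted p = 0.172). Values of Canx did not follow the rest: it was at 178 and 180.3 FPKM in the gLmna-1 libraries and at 191 and 168 in the gLmna-2 libraries, a change of 0.00 (SE 0.09). Dnajb9, a BiP co-chaperone, gave 0.13 (SE 0.22).

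**Figure D2:**
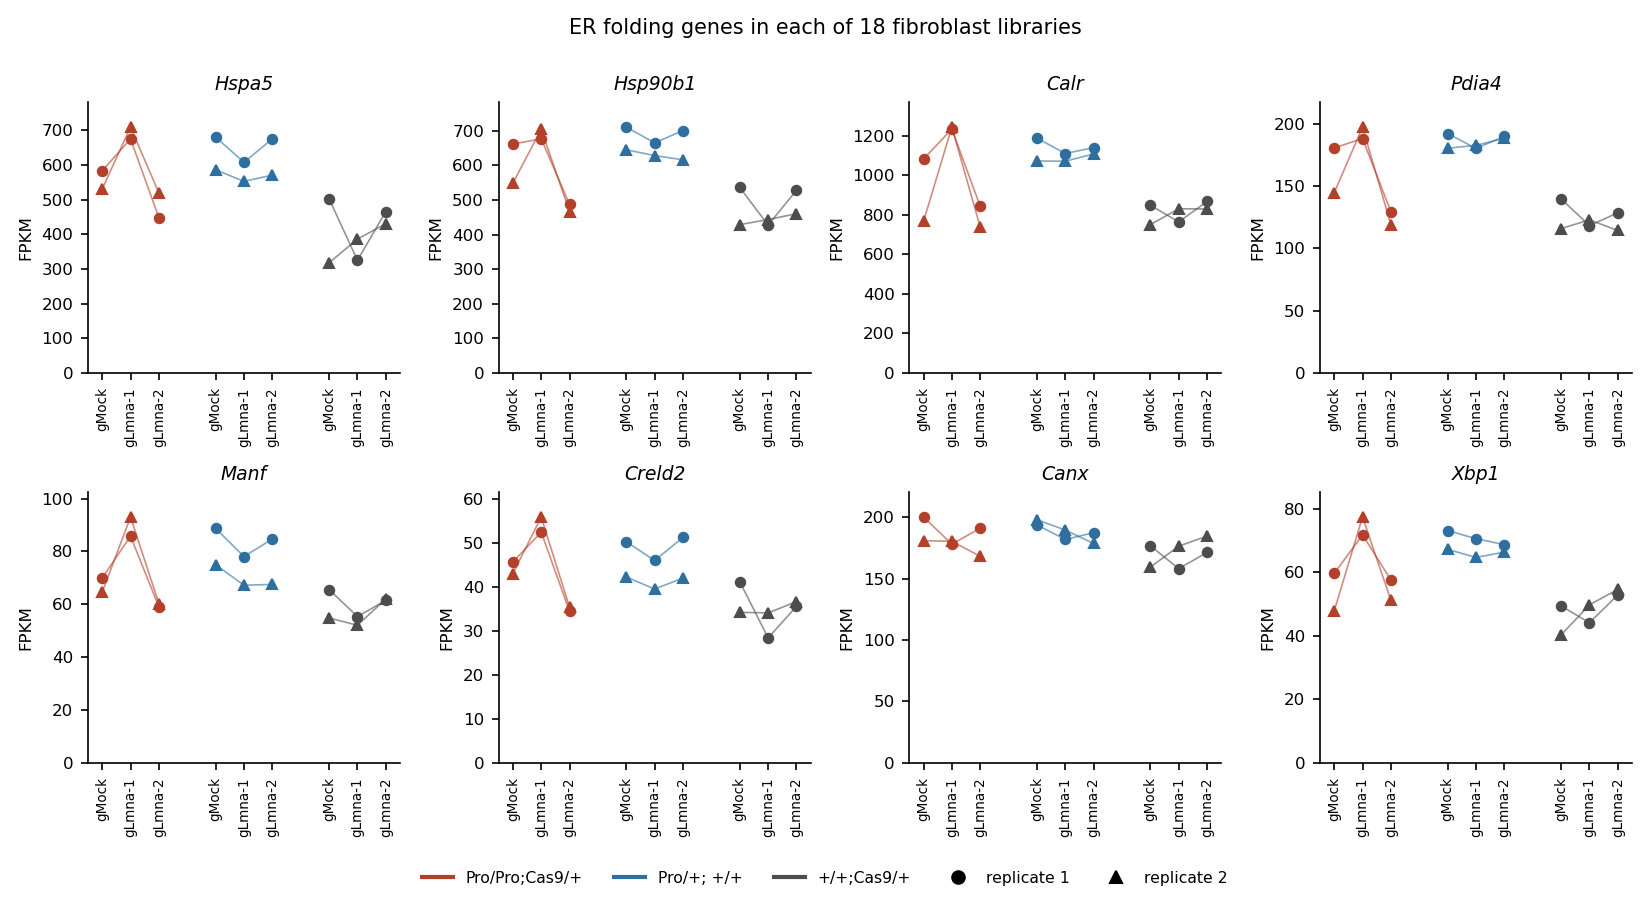
FPKM of 8 members (vertical axes from 0) by genotype and guide. Circles and triangles are replicates 1 and 2, and lines join the libraries of a replicate. Within each replicate of Pro/Pro;Cas9/+ the gLmna-1 library is highest and the gLmna-2 library lowest for Hsp90b1, Calr, Pdia4, Manf and Creld2, whereas Canx lies between 158 and 200 FPKM throughout.

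The same order held at the level of single replicates. Both gLmna-2 libraries lay below both gLmna-1 libraries for 13 of the 15 chaperones, which held for 14.8% of all tested genes. Within replicates, 14 of the 15 were lower with gLmna-2 than with gLmna-1 in each of the 2 mice, the exception being Canx in replicate 1 and Dnajb9 in replicate 2, with median differences of −27.4% in replicate 1 and −24.5% in replicate 2. Against gMock, both gLmna-1 libraries lay above both gMock libraries for 10 of 15 chaperones (12.4% of all genes), and both gLmna-2 libraries lay below them for 10 of 15 (11% of all genes). With gLmna-2 all 15 were below gMock in each of the 2 mice, with median differences of −18.2% and −9.49%. These 3 comparisons share libraries and are not independent of each other.

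Measured against gMock, no member passed with either guide. With gLmna-1 in Pro/Pro;Cas9/+ 0 of 32 members passed (limma, 0.976% of all genes did). An unadjusted p under 0.05 was found for 10 of the 32, against 2265 of all 12599 genes. The lowest adjusted p was 0.0588, for Manf (log2 change 0.41, SE 0.08). For the chaperones the median log2 change was 0.20, and 11 of 15 were positive, against 42.6% of all genes. With gLmna-2, 0 members passed (0.357% of all genes) and 8 had an unadjusted p under 0.05 (1272 of all 12599 genes did), all of them chaperones. The median of the chaperones was −0.21, with 0 of 15 positive (55.3% of all genes), and the lowest adjusted p was 0.204, for Pdia4 (−0.38, SE 0.10). With both guides averaged, 0 members passed (0.0794% of all genes) and 2 had an unadjusted p under 0.05 (1055 of all 12599 genes did). The count for gLmna-1 was 1 by limma voom on recovered reads, and it depended on single libraries, as given in the closing section.

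In the other genotypes no member passed between the guides, and the signs were mostly the other way. In +/+;Cas9/+ the 15 chaperones had a median log2 change of 0.09 from gLmna-1 to gLmna-2, with 13 positive, against 56.4% of all genes. By limma 0 members passed, as did 0% of all genes, and 1 member had an unadjusted p under 0.05 (1009 of all 12599 genes did). There both gLmna-2 libraries lay above both gLmna-1 libraries for 9 of 15 chaperones, against 24.9% of all genes. In Pro/+; +/+, which lacks Cas9, the chaperones had a median of 0.04 with 11 positive, against 50.2% of all genes. There 0 members and 0% of all genes passed, and 0 members had an unadjusted p under 0.05 (266 of all 12599 genes did). From gLmna-1 to gLmna-2, Hspa5 went from 325 and 386 FPKM to 465.5 and 430.5 in +/+;Cas9/+, and from 608 and 553 to 675.5 and 571 in Pro/+; +/+.

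The difference between genotypes was tested directly. The change from gLmna-1 to gLmna-2 was more negative in Pro/Pro;Cas9/+ than in Pro/+; +/+ for 3 members, against 2.38% of all genes (300 genes, 210 more positive and 90 more negative, or 95 and 91 with libraries scaled to the same median, and 154 and 104 after quantile normalization). They were Creld2 (difference of log2 changes −0.74, SE 0.15, adjusted p = 0.0447), Pdia4 (−0.69, SE 0.15, adjusted p = 0.0480) and Manf (−0.64, SE 0.12, adjusted p = 0.0354). In Pro/+; +/+, Creld2 had FPKM values of 50.2, 45.9, 51.2 (replicate 1) and 42.2, 39.5, 41.9 (replicate 2). Pdia4 had FPKM values of 192, 180.3, 190.0 (replicate 1) and 180.5, 183, 188.5 (replicate 2). Manf had FPKM values of 88.7, 78.1, 84.7 (replicate 1) and 75.0, 67.2, 67.5 (replicate 2). In each of these 3 genes gLmna-2 lay at or above gLmna-1 in both replicates of Pro/+; +/+, and below it in both of Pro/Pro;Cas9/+. The calls were close to the threshold: the count was 0 without the replicate block and ranged from 0 to 15 when single libraries were left out (0 without either gLmna-2 library of Pro/Pro;Cas9/+, 1 without its gLmna-1 library of replicate 2 and 15 without that of replicate 1, also 0 without any 1 library of Pro/+; +/+ or either gLmna-2 library of +/+;Cas9/+, and 1 without either gLmna-1 library of +/+;Cas9/+).

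Against +/+;Cas9/+, which shares Cas9 and lacks the Pro allele, the same difference of changes did not pass for any member (0 of 32, 0.0476% of all genes). The estimates pointed the same way, with 0 of 15 chaperones positive (59.2% of all genes) and a median difference of −0.48. Manf had the lowest adjusted p, 0.0670 (−0.77, SE 0.12), and Creld2 was at −0.83 (SE 0.15, adjusted p = 0.109). A total of 14 of the 32 members, 11 of them chaperones, had an unadjusted p under 0.05, against 1250 of all 12599 genes. By limma voom 0 members passed. For both guides together against gMock, 0 members differed between Pro/Pro;Cas9/+ and +/+;Cas9/+ (0.0476% of all genes, 0 members at an unadjusted p under 0.05) or Pro/+; +/+ (0%, 1 member at an unadjusted p under 0.05).

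**Figure D3:**
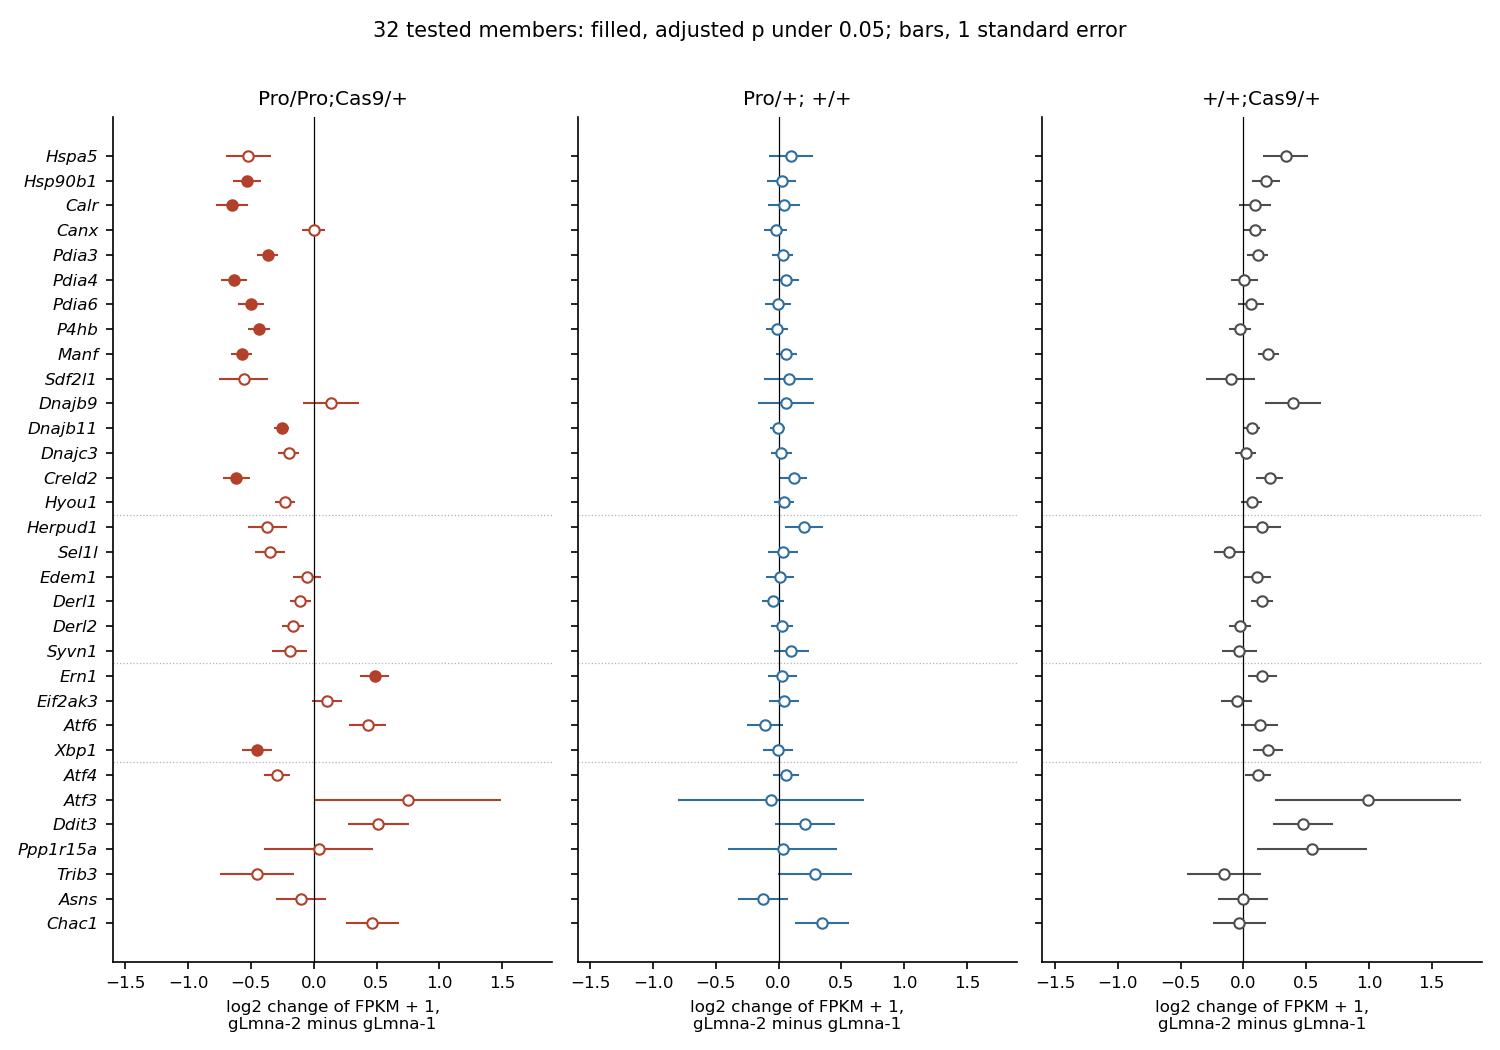
Log2 change of FPKM + 1 from gLmna-1 to gLmna-2 for the 32 tested members in each genotype, with bars of 1 standard error. Filled points passed at an adjusted p of 0.05, and dotted lines part chaperones, degradation genes, sensors with Xbp1, and the Atf4 branch. The 11 filled points are all in Pro/Pro;Cas9/+, 10 of them left of 0, and Atf3 and Ppp1r15a have the widest bars.

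The comparison between guides in Pro/Pro;Cas9/+ rested on few libraries. The count of 11 members fell to 1 (Pdia4) without the replicate block that pairs libraries of a mouse, to 0 when only the libraries of this genotype were fitted, and to 5 after quantile normalization. Omitting 1 library at a time gave 0 (gLmna-2, replicate 1), 3 (gLmna-2, replicate 2), 19 (gLmna-1, replicate 1) and 8 (gLmna-1, replicate 2). Omitting either gMock library of Pro/+; +/+ or either gLmna-2 library of +/+;Cas9/+ gave 7. All 11 kept their direction in every one of these fits. The counts with a library omitted are not set against the share of all genes in the same fit, so they show only how unstable the count is. Of the 1253 genes that passed, 872 were higher with gLmna-2, against 487 of 1089 when libraries were scaled to the same median and 609 of 1119 after quantile normalization. Of the 11 members, all but Ern1 passed with the median scaling too. The macrophage markers in these libraries had summed FPKM of 680 and 827 (gMock), 534 and 1336 (gLmna-1), and 893 and 1742 (gLmna-2). Each pair gives the lower library first and is not in the order of replicates. From gLmna-1 to gLmna-2 their mean log2(FPKM + 1) rose from 3.87 to 5.38 in replicate 1. In replicate 2 it fell from 5.09 to 4.54. In the fit over both replicates, 12 of the 13 macrophage markers had a positive log2 change from gLmna-1 to gLmna-2, with a median of 0.58. Of these markers 0 passed and 2 had an unadjusted p under 0.05. Their part in the result was not tested.

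Other genes of the secretory pathway were read from lists by function, to be set against the 9.95% of all genes that passed in this comparison (6.92% higher, 3.02% lower). Of 34 tested genes for other ER folding, glycosylation and redox, 10 were lower with gLmna-2 than with gLmna-1 in Pro/Pro;Cas9/+ and none was higher. Those with the smallest p were the calcium-binding protein Rcn3 (log2 change −0.50), the prolyl isomerase Fkbp7 (−0.48) and Ostc, a subunit of oligosaccharyltransferase (−0.52). Of 31 genes for translocation and ER to Golgi transport, 3 were lower and 1 higher, a total near the share over all genes. Kdelr2, a receptor that returns chaperones to the ER, gave −0.49 and Ssr2 of the translocon-associated complex −0.47, whereas Mcfd2, a cargo receptor subunit, gave 0.41. Of 29 genes for other ER degradation and ER stress regulators, 5 were lower, among them the ER-bound transcription factor Creb3l1 (−0.61), Vimp (−0.44) and Bax (−0.29).

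Chaperones outside the ER were mostly positive. Of 21 genes for cytosolic and mitochondrial chaperones, 2 were higher, the small heat shock protein Hspb1 (0.74) and the Hsp110-type protein Hspa4 (0.38), and 0 were lower, a count near the 9.95% of all genes. A total of 18 of 21 were positive, against 60.3% of all genes. For the same change, 19 of 21 were positive in +/+;Cas9/+ (56.4% of all genes) and 4 of 21 in Pro/+; +/+ (50.2%). Of 11 fibroblast markers, the collagens Col3a1 (−1.37) and Col1a1 (−0.80), both cargo of the secretory pathway, were lower and Thy1 (1.08), a surface glycoprotein, was higher. Of the other cell types, the muscle genes Acta1 (1.70) and Des (0.86) were higher, and Fabp4 (−0.74) of fat and Trp63 (−0.60) of keratinocytes lower. Fabp4 and Trp63 are each 1 of only 2 tested markers of their lists. The other tested marker was at 0.43 for fat and −0.01 for keratinocytes, so these lists show no common direction. Of 6 tested pigment and Schwann markers 0 passed, and 5 had an unadjusted p under 0.05 (3181 of all 12599 genes did). In +/+;Cas9/+ 2 of 2 tested muscle genes and 6 of 6 pigment and Schwann markers were also positive between the guides. In Pro/+; +/+ 0 of 2 and 2 of 6 were, and 0 passed in either genotype. Whether any of these bears on the chaperones was not tested.

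Upstream sequence was read for the members from RefSeq promoter windows of build GRCm38.p6, which run from 250 bases before to 50 after each annotated start. A window was found for 29 of the 33 members. Those without one were Atf6, Derl1, Hyou1 and Manf. The windows were searched for 4 motifs on both strands. The ER stress element, ERSE, has the letters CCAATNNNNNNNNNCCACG and is known as a site where Atf6 acts beside the general factor NF-Y. ERSE-II has the letters ATTGGNCCACG, the UPRE bound by Xbp1 and Atf6 the letters TGACGTGG, and the core of the amino acid response element of Atf4 the letters TGATGNAA. The last 5 letters of both ERSE forms are the reverse complement of the last 5 of the UPRE, so these searches overlap in part.

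ERSE was in 39 of 32851 windows, 0.119%, and in the windows of 9 members: the chaperones Hspa5, Hsp90b1, Calr, Canx, Creld2, Pdia6 and Dnajc3, 7 of the 13 chaperones with a window, and the degradation genes Derl3 and Syvn1. ERSE-II was in 0.0365% of windows and in those of Herpud1 and Dnajb11, in the latter after the start. The UPRE was in 0.676% of windows and in that of 0 members. These genes have long been studied as targets of the response, so the share among them is a description of known promoters. The windows below show the motif in capitals with 15 bases on each side, on the strand of the gene. Where the capitals begin with CGTGG the motif lies on the opposite strand. They are shown because these are the chaperones with an ERSE in the window: Hsp90b1, Calr, Creld2 and Pdia6 passed between the guides, and Hspa5, Dnajc3 and Canx did not. Hspa5 is at chr2:34772010-34772058 (+ strand), Hsp90b1 at chr10:86705623-86705671 for its upstream copy and chr10:86705518-86705566 for its downstream copy (− strand), Calr at chr8:84847060-84847108 (− strand), Creld2 at chr15:88819505-88819553 (+ strand), Pdia6 at chr12:17266476-17266524 (+ strand), Dnajc3 at chr14:118937812-118937860 (+ strand) and Canx at chr11:50325785-50325833 (− strand).
Hspa5: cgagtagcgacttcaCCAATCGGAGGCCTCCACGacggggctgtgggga
Hsp90b1 upstream copy: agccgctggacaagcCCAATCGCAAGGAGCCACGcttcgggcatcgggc
Hsp90b1 downstream copy: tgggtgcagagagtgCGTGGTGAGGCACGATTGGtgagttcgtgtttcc
Calr: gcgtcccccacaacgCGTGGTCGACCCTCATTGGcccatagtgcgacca
Creld2: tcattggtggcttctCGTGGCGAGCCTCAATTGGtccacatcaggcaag
Pdia6: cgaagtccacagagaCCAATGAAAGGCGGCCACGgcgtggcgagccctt
Dnajc3: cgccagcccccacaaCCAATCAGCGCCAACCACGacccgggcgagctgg
Canx: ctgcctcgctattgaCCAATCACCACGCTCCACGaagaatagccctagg

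Among these genes the change between guides in Pro/Pro;Cas9/+ ran from −0.65 for Calr and −0.62 for Creld2 through −0.53 for Hsp90b1, −0.52 for Hspa5, −0.50 for Pdia6 and −0.20 for Dnajc3 to −0.0008 for Canx. Of the 10 tested members with an ERSE or ERSE-II in the window, 5 passed, all lower, against 9.95% of all genes passing and 3.02% lower. All 10 had a negative change, and the median was −0.43. Of 13 tested genes outside the members with such a motif, 0 passed, 8 were negative and the median was −0.04. The motif in the window was thus also present in genes whose change did not pass. Of the chaperones with a window but neither ERSE form, Pdia3, Pdia4 and P4hb were lower, and Sdf2l1 and Dnajb9 did not pass. Lower chaperones were thus found with and without the motif, and whether it bears on the change was not tested.

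Degradation genes had small negative changes between the guides in Pro/Pro;Cas9/+. By limma 0 of 6 tested members passed, which is near the 9.95% of all genes, and 2 had an unadjusted p under 0.05 (3181 of all 12599 genes did). All 6 had a negative log2 change, with a median of −0.18. Herpud1, a membrane protein that recruits the degradation machinery, had FPKM values of 49.4, 43.4, 37.1 (replicate 1) and 41.3, 57.5, 39.9 (replicate 2), with a log2 change between the guides of −0.37 (adjusted p = 0.166). Sel1l, the partner of the ubiquitin ligase Hrd1, had FPKM values of 46.5, 41.98, 39.95 (replicate 1) and 39.7, 50.4, 32.3 (replicate 2), a change of −0.35 (adjusted p = 0.107). In both genes the gLmna-1 library of replicate 1 was below gMock and that of replicate 2 above it. Syvn1, which encodes Hrd1, gave −0.19, the channel proteins Derl2 and Derl1 −0.16 and −0.11, and Edem1, a lectin that selects misfolded glycoproteins, −0.05. The lowest adjusted p of these 4 was 0.297, for Derl2. The Herpud1 window at chr8:94386362-94386402 (+ strand) shows its ERSE-II in capitals.
Herpud1: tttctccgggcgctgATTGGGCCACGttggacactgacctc

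Of the 3 sensors and Xbp1, 2 genes passed in Pro/Pro;Cas9/+, in opposite directions. Xbp1, the transcription factor downstream of Ire1, had FPKM values of 59.6, 71.8, 57.5 (replicate 1 of Pro/Pro;Cas9/+) and 47.8, 77.4, 51.2 (replicate 2), and was lower with gLmna-2 than with gLmna-1 (−0.45, SE 0.12, adjusted p = 0.0458). Both gLmna-1 libraries were above all others of this genotype. Ern1, which encodes Ire1, had FPKM values of 3.995, 3.13, 4.25 (replicate 1) and 7.62, 4.21, 7.03 (replicate 2), and was higher with gLmna-2 (0.49, SE 0.12, adjusted p = 0.0315). With libraries scaled to the same median it was at 0.40 and no longer passed. Atf6 had FPKM values of 10.6, 9.79, 11.3 (replicate 1) and 19.2, 10.7, 17.5 (replicate 2), a change of 0.43 (adjusted p = 0.0997), and Eif2ak3 gave 0.11 (SE 0.12). For Ern1 and Atf6 the libraries of replicate 2 with gMock and gLmna-2 were the highest of this genotype.

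The amount of Xbp1 RNA does not say how much of it Ire1 has spliced. Ire1 removes 26 bases of Xbp1, and the table counts reads over exon 4 (chr11:5524239-5524384, 146 bases, + strand, GRCm38) and over the stretches before and after the segment at 5524282 to 5524307, so reads placed in the segment follow by difference. Exon 4 is printed here with the segment in capitals, as it shows where the cut lies.
Xbp1 exon 4: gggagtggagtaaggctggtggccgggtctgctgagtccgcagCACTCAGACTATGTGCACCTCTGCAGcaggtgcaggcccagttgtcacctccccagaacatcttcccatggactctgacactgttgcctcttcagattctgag

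The segment is 17.8% of the exon by length. In Pro/Pro;Cas9/+ it held 18.9% of exon 4 reads with gMock (95% exact interval 13.6 to 25.3), 8.70% with gLmna-1 (4.25 to 15.4) and 22.1% with gLmna-2 (15.4 to 30.0) in replicate 1. In replicate 2 it held 8.33% (2.76 to 18.4), 22.4% (16.2 to 29.8) and 16.2% (8.67 to 26.6). The gLmna-1 library had the lowest share of replicate 1 and the highest of replicate 2. With gLmna-2 the share was above that with gMock in both, with intervals that overlapped. In Pro/+; +/+ the share lay between 10.2% and 21.6% and in +/+;Cas9/+ between 12.2% and 17.2%. Exon 4 held only 60 to 213 reads per library, the intervals cover counting error only, and those of 16 of the 18 libraries hold the share by length. Where within a read the counter placed it is not given in the sources used here, so these shares are no measure of the spliced fraction. This reading of exon 4 was chosen after the data had been seen.

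**Figure D4:**
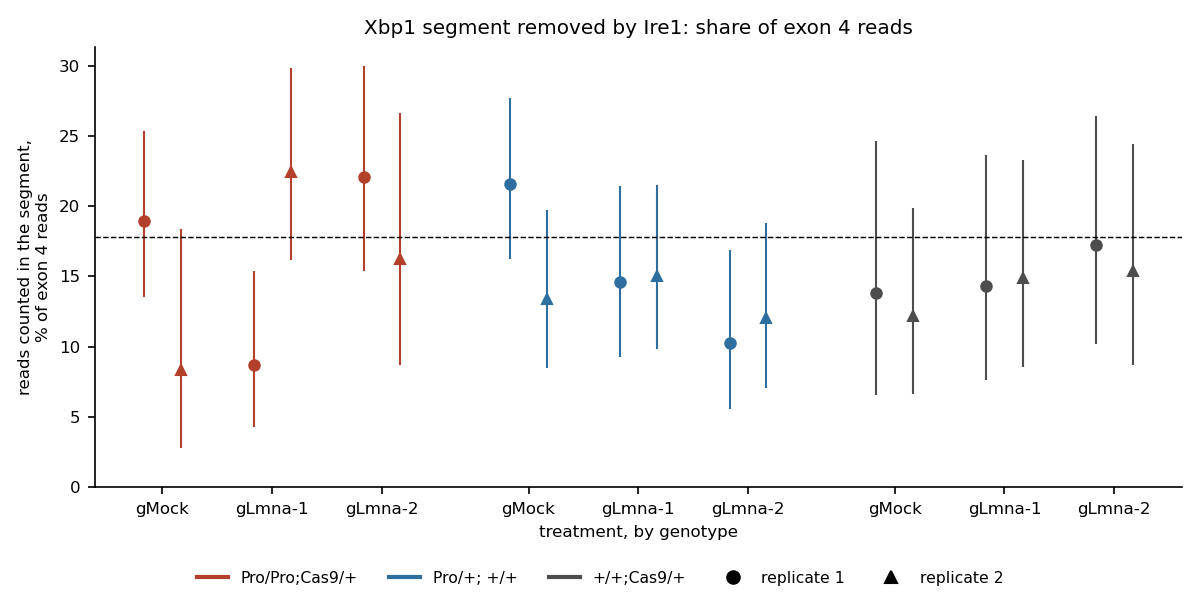
Reads counted in the 26-base segment of Xbp1 exon 4 as a percent of exon 4 reads, for each library by genotype and treatment, with exact 95% intervals for counting error. The dashed line is the segment's share of the exon's length, 17.8%. The intervals of most libraries overlap, and the 2 replicates of Pro/Pro;Cas9/+ with gLmna-1 are at 8.70% and 22.4%.

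The Atf4 branch had no common direction between the guides. In Pro/Pro;Cas9/+ 0 of its 7 members passed between the guides, their median log2 change was 0.04 with 4 positive, and 1 had an unadjusted p under 0.05. With 9.95% of all genes passing, a count of 0 of 7 is near the background and says nothing particular about the branch. Atf4 itself had FPKM values of 163, 214, 149 (replicate 1) and 199, 202, 193.5 (replicate 2), a change of −0.29 (SE 0.10, adjusted p = 0.113). Asns, asparagine synthetase, gave −0.10 (SE 0.20), Trib3, a pseudokinase that restrains Atf4, −0.45 (SE 0.30) and Chac1, a glutathione-degrading enzyme, 0.47 (SE 0.21). Asns had FPKM values of 52.3, 74.6, 48.1 (replicate 1) and 66.2, 51.6, 69.4 (replicate 2). Those of Trib3 were 15.7, 19.9, 7.98 (replicate 1) and 15.02, 14.4, 18.2 (replicate 2). In these 2 genes the gLmna-1 library was the highest of replicate 1 and the lowest of replicate 2. Over the branch, 6 of 7 members were lower with gLmna-2 than with gLmna-1 in replicate 1, with a median difference of −30.5%, and 6 of 7 were higher in replicate 2, with a median of 72.6%. Of the chaperones, 13 of 15 were lower in both replicates.

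Atf3, Ddit3 and Ppp1r15a differed between libraries of the same group. Atf3, a stress-induced repressor, had FPKM values of 3.61, 9.28, 6.85 (replicate 1 of Pro/Pro;Cas9/+) and 21.9, 5.51, 23.1 (replicate 2). In +/+;Cas9/+ it had FPKM values of 18.3, 4.21, 16.6 (replicate 1) and 3.14, 2.01, 2.55 (replicate 2), and in Pro/+; +/+ values of 1.93, 13.0, 4.52 (replicate 1) and 1.53, 1.93, 5.89 (replicate 2). The libraries with gMock and gLmna-2 of replicate 2 of Pro/Pro;Cas9/+ and of replicate 1 of +/+;Cas9/+ were therefore the 4 highest, and the groups they belong to hold a low library each. With these libraries within groups so far apart, the log2 change of Atf3 between the guides, 0.75 in Pro/Pro;Cas9/+, had an SE of 0.74 (adjusted p = 0.597).

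The same 4 libraries were the highest for Ddit3, the pro-apoptotic factor Chop, at 131, 177, 166 and 149 FPKM against 56.9 to 103 in the other libraries. Ppp1r15a, which encodes Gadd34 and reverses the translation block, was at 91.5, 84.6, 97.5 and 92.3 FPKM in them, but also at 96.4 in the gLmna-1 library of replicate 1 of Pro/Pro;Cas9/+ and at 91.5 in that of Pro/+; +/+. Dnajb9 and Canx were the chaperones that did not follow the others. Dnajb9 was at 30.2, 27.1, 26.7 and 24.7 in the 4 libraries, its 4 highest values. Canx did not share this: it was at 180.7, 168, 176.6 and 171.3 FPKM in them, and its highest value was 200. Junb, an immediate early gene outside the members that was added after the data had been seen, was at 303, 353, 387 and 407 FPKM in these libraries and between 73.9 and 284 in the others. Gdf15, a stress-induced cytokine, is on the list of other Atf4 and integrated stress response genes but was singled out after the data had been seen. It was at 14.3, 15.7, 12.3 and 12.9 FPKM in them and between 0.622 and 10.1 in the others. Of 2 further immediate early genes added after the data had been seen, Egr1 was also highest in them, at 181.5, 228, 264 and 261 FPKM against 29.6 to 172. Fosb did not share this: it was at 43.2, 33.3, 68.5 and 61.8 FPKM in them, but its highest value, 113.5, was in the gLmna-1 library of replicate 1 of Pro/+; +/+, and 2 others, at 39.2 and 35.2, exceeded the lowest of the 4. The part of this state of the libraries in the chaperone result was not tested. With 1 of these 4 libraries omitted at a time, in the order above, 11, 3, 12 and 7 members passed between the guides in Pro/Pro;Cas9/+. The 3 members were Pdia6, Manf and Trib3.

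**Figure D5:**
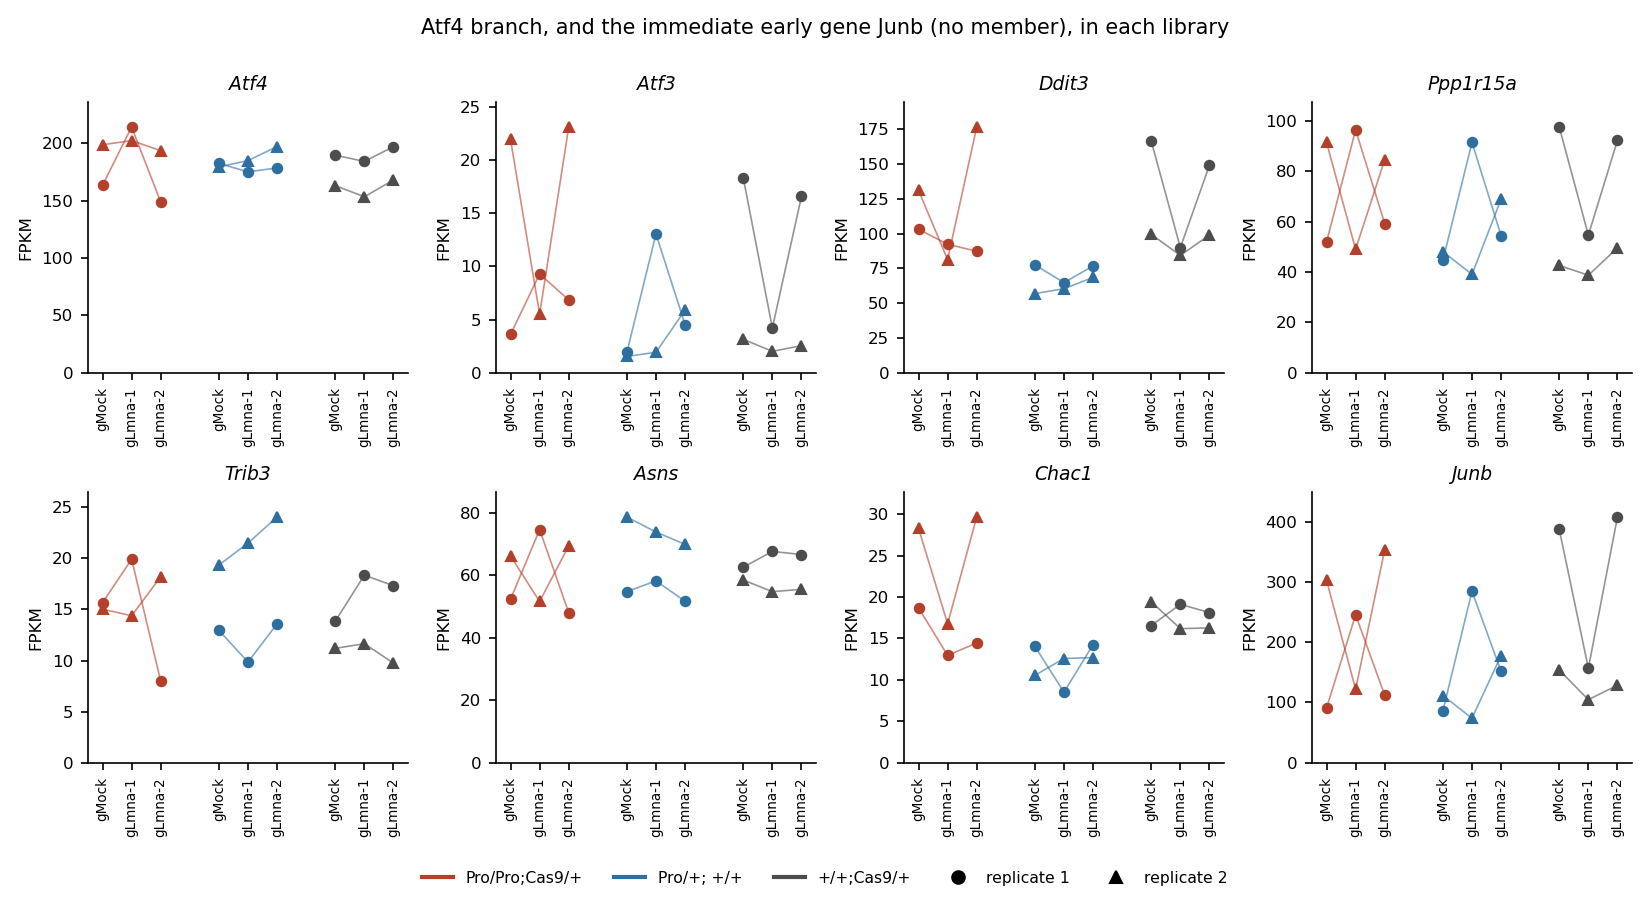
FPKM (vertical axes from 0) of the 7 members of the Atf4 branch and of Junb, an immediate early gene that is no member, by genotype and treatment. Circles and triangles are replicates 1 and 2, joined by lines. For Atf3, Ddit3 and Junb the gMock and gLmna-2 libraries of replicate 2 of Pro/Pro;Cas9/+ and of replicate 1 of +/+;Cas9/+ are highest, with Atf3 between 16.6 and 23.1 FPKM.

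The core of the amino acid response element was in 3.97% of all windows and in those of 4 of the 7 members of the Atf4 branch, Asns, Atf3, Chac1 and Trib3, and of Herpud1. In Trib3 it lies after the start. The windows at chr1:191183421-191183458 (Atf3, − strand) and chr2:119351034-119351071 (Chac1, + strand) show the core in capitals, on the opposite strand in each. The same 8 letters occur in both.
Atf3: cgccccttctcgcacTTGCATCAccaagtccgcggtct
Chac1: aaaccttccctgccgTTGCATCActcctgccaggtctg
The FPKM of Chac1 in Pro/Pro;Cas9/+ was 18.7, 13.0, 14.5 (replicate 1) and 28.3, 16.8, 29.6 (replicate 2). In replicate 1 Atf3 was higher and Chac1 lower with gLmna-1 than with gMock, whereas in replicate 2 both were lower with gLmna-1 than with either other guide.

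Further genes of the integrated stress response and of translation control were read from lists by function. Of 44 tested genes for other Atf4 and integrated stress response genes, 3 were lower with gLmna-2 than with gLmna-1 in Pro/Pro;Cas9/+ and none was higher: Jdp2, a Jun dimerization protein (−0.71), Pck2, a mitochondrial enzyme of phosphoenolpyruvate synthesis (−0.68), and Aldh18a1, which makes proline precursors (−0.45). This is no more than the 9.95% of all genes that passed. Of 12 genes for translation arrest kinases and their target, 0 passed and 2 had an unadjusted p under 0.05. The median over the 44 was −0.01.

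The genotypes were then compared under gMock alone, in 3 pairs. Pro/Pro;Cas9/+ and +/+;Cas9/+ differ in the Pro allele alone by their labels, while either of them differs from Pro/+; +/+ in both the Pro allele and Cas9, which cannot be told apart. No member passed. Between Pro/Pro;Cas9/+ and +/+;Cas9/+, 0 of 32 passed (0.397% of all genes did) and 0 had an unadjusted p under 0.05 (1308 of all 12599 genes did). All 15 chaperones were nevertheless higher in the mean, by a median log2 change of 0.23. Among all genes 50.7% were positive. In the same comparison 13 of 13 macrophage markers were positive, with a median of 2.09, of which 0 passed and 12 had an unadjusted p under 0.05. Their sums were 680 and 827 FPKM in Pro/Pro;Cas9/+ and 78.2 and 281 in +/+;Cas9/+. Of 11 fibroblast markers, Thy1 (−3.26) and Pdgfra (−1.16) passed as lower and 0 as higher. The fibroblast markers had no common direction: 4 of 11 were positive, up to 1.52, and the median was −0.31. Replicate 2 of Pro/Pro;Cas9/+ and replicate 1 of +/+;Cas9/+ are also the gMock libraries with high Atf3, and 0 members passed with any 1 of the 6 gMock libraries omitted. The part of these in the chaperone levels was not tested. Hspa5 was at 583 and 530.4 FPKM in Pro/Pro;Cas9/+ and at 503 and 318 in +/+;Cas9/+, a change of 0.48 (SE 0.25, adjusted p = 0.667). Replicate 1 of +/+;Cas9/+ was close to the Pro/Pro;Cas9/+ values, and replicate 2 was far below.

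Chaperones had higher means in Pro/+; +/+ than in +/+;Cas9/+ under gMock, and 3 of 15 were higher in Pro/Pro;Cas9/+ than in Pro/+; +/+. Hspa5 was at 681 and 586 FPKM, Calr at 1189 and 1073 and Pdia4 at 192 and 180.5, against 849 and 751 for Calr and 139.8 and 116 for Pdia4 in +/+;Cas9/+. For these 3 genes both values lay above both of +/+;Cas9/+. The median log2 change of the chaperones was 0.36 from +/+;Cas9/+ to Pro/+; +/+, with 14 of 15 positive, against 48.6% of all genes. However, 0 of 32 members passed (0.413% of all genes), and 8 had an unadjusted p under 0.05 (1577 of all 12599 genes did). The lowest adjusted p was 0.228, for Xbp1 (0.64, SE 0.16). Between Pro/Pro;Cas9/+ and Pro/+; +/+, 0 members and 0% of all genes passed. There 2 members, Ddit3 (log2 change 0.80) and Chac1 (0.86), had an unadjusted p under 0.05, as did 547 of all 12599 genes. The comparisons of genotypes rest on 2 libraries each and share the gMock libraries.

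In +/+;Cas9/+ and Pro/+; +/+ the guides were also compared with gMock. In +/+;Cas9/+ 0 members passed with gLmna-1 (0.691% of all genes, 3 members at an unadjusted p under 0.05), with gLmna-2 (0.564%, 0 members) or with both guides (0.849%, 0 members). Of all 12599 genes, 1085, 953 and 959 were at an unadjusted p under 0.05 in these 3 comparisons. Hspa5 there had FPKM values of 503, 325, 465.5 (replicate 1) and 318, 386, 430.5 (replicate 2). The gLmna-1 library was thus the lowest of replicate 1 and the middle one of replicate 2. In Pro/+; +/+, where no Cas9 is present, 0 members passed with gLmna-1, gLmna-2 or both (0% of all genes in each) and 0 had an unadjusted p under 0.05. Chaperones were lower with gLmna-1 than with gMock for 13 of 15 in replicate 1 and 14 of 15 in replicate 2 of these cells, by medians of −6.29% and −3.59%. This gives the size of a shift seen without Cas9. All genes leaned the same way, with 37.3% positive and a median log2 change of −0.035. Relative to the mean of all libraries, the library median was −0.071 with gLmna-1 and 0.027 with gMock in replicate 1, and −0.017 and −0.019 in replicate 2.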

How the data were processed

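Total RNA, extracted without DNase digestion per the labels' protocols, was sequenced from 18 libraries. The submitters' processing notes name STAR 2.4.0k, FastQC 0.11.2, HOMER and the build mm10. FPKM values were made by the authors over the exons of each transcript part, per the file headers. The strand setting is not given in the sources used here, so overlapping antisense transcripts cannot be separated. Of the library columns, 6 match no labelled sample and were not used.

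Parts were joined into 36795 transcripts by length, and the transcript with the highest mean was used for each symbol. From the smallest steps between FPKM values, library depths were worked out (100% of values whole within 0.05). The design had assumed rows of genes. Genes were tested on log2(FPKM + 1), a pseudocount that understates changes of low genes, by lmFit and a trended eBayes of limma 3.58.1 under R 4.3.3. An adjusted p is Benjamini-Hochberg adjusted over all 12599 tested genes, with 0.05 as the threshold. Guide comparisons used all 18 libraries with the mouse as a block (6 residual degrees of freedom), genotype comparisons the 6 gMock libraries (3 residual degrees of freedom). The labels name the mouse of each library. Deviations of its libraries from their group means correlated between −0.019 and 0.778 in Pro/Pro;Cas9/+, 0.472 and 0.734 in Pro/+; +/+, and 0.176 and 0.590 in +/+;Cas9/+. In Pro/Pro;Cas9/+ the value was −0.019 for gLmna-1 with gLmna-2, 0.128 for gMock with gLmna-1 and 0.778 for gMock with gLmna-2. The 2 guides compared there thus showed no shared deviation of a mouse. All p-values rest on 2 replicates per group. The fits were tested on simulated data. Tables used pandas 2.3.3 and numpy 2.4.6 under Python 3.11.15, figures matplotlib 3.10.9. Every member is named; of each other list, up to 3 passing genes with the smallest p are named. The members and lists were chosen with earlier results of these data known.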

Additional observations from a re-analysis of the deposited data

Results flagged for a closer look

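For 3 members the change from gLmna-1 to gLmna-2 differed between genotypes by a test of the difference itself, in Pro/Pro;Cas9/+ against Pro/+; +/+. The differences of log2 changes were −0.69 for Pdia4, −0.64 for Manf and −0.74 for Creld2, with adjusted p-values of 0.0480, 0.0354 and 0.0447 by limma. Each gene was lower with gLmna-2 in both replicates of Pro/Pro;Cas9/+ and not lower in either of Pro/+; +/+. These genotypes differ in the Pro allele and in Cas9, which cannot be told apart here.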

How the results depend on the processing

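In Pro/Pro;Cas9/+, the count of members that passed between the guides (11) was 1 with no replicate block, 0 with only this genotype's libraries, 4 with no filter on low values and 5 with quantile normalization; leaving out single libraries gave 0 to 19. It was 10 with libraries scaled to the same median, and the same 11 passed with a pseudocount of 0.1, with the mean of all transcripts of a symbol and by limma voom on recovered reads, which was added after seeing the data. The count for gLmna-1 against gMock (0) was 1 with libraries scaled to the same median, 1 by limma voom and 0 to 9 without single libraries. The difference of changes between the guides from +/+;Cas9/+ (0) was 0 to 8 without single libraries. That from Pro/+; +/+ (3) was 0 with no replicate block, 0 with no filter on low values, 1 with libraries scaled to the same median, 1 with quantile normalization and 0 to 15 without single libraries. The replicate block changed no other count, and the other 15 counts were 0 under each alternative run. No change of a member that passed reversed its direction. The fits with only 1 genotype have few residual degrees of freedom. Where a library was left out, the lone one of its group was assumed to vary like the other groups. The counts without single libraries are not set against the share of all genes in the same fits. They show only how far a count depends on 1 library. The 2 replicates per group limit every comparison, and Xbp1 exon 4 held at most 213 reads.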
